A study of Mus musculus with 8 samples.

Results

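Hair bulb progenitors of Shh-CreER mice were sequenced in a pair of RNA-seq libraries, 1 labelled Het and 1 labelled cKO for the BMP receptor gene Bmpr1a. They are 2 of the 8 samples of a mouse study of the hair follicle stem cell lineage. They were chosen by their labels alone, and genes were kept where the mean of the 2 libraries was at least 1 FPKM (fragments divided by the length of the transcript and by the size of the library), which left 12296 of 22431 gene symbols. Both libraries came from transit-amplifying cells (TACs) of mice of mixed strain at postnatal day 68, and both carry the driver. The series design gives Bmpr1a fl/fl as the deleted genotype, while the alleles behind Het are not spelled out. The other TAC samples of the study, used below for comparison, came from hair bulbs of K15-CrePGR mice at postnatal day 80, with 2 WT samples (52 and 57) and 2 Bmpr1a KO samples (64 and 84).

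Shh-CreER is a Cre recombinase that acts only in cells expressing Shh, and only once a ligand such as tamoxifen has been given, so a deletion made with it reaches Shh-expressing matrix cells and their descendants. The labels give no day of induction, no number of animals per library and no method of cell isolation. TACs are the fast-dividing epithelial cells of the hair bulb that surround the dermal papilla and give rise to the hair shaft and the inner root sheath. Bone morphogenetic proteins bind a receptor built from type I chains such as BMPR1A and type II chains, which phosphorylates SMAD1 and SMAD5 and so switches on targets that include the Id genes and Msx genes. In the hair matrix this signal is known for its role in the step from dividing progenitor to keratinizing hair shaft cell.

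Both libraries held marker RNA of the labelled cell type, hair bulb TACs. Shh, the ligand that names the driver, stood at 111 FPKM in Het against 199 in cKO. Values of this pair are given below in that order, Het before cKO. The proliferation gene Mki67 was at 97.2 and 125 FPKM, and the matrix gene Mycn at 45.5 and 30.0 FPKM. The other markers of the bulb stood far apart in the pair: Hoxc13 was at 152 and 14.9 FPKM, Krt35 at 3092 and 268 FPKM, and Msx2 at 175 and 49.5 FPKM. Lgr6, a marker of the isthmus above the bulb, was at 3.92 and 46.6 FPKM. The libraries also held RNA of other cells, since the fibroblast gene Dcn was at 579 and 709 FPKM and the macrophage gene C1qa at 134 and 66.1 FPKM.

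Bmpr1a, the targeted gene, was at 46.0 FPKM in Het against 40.4 in cKO (log2 difference -0.18). This level sums over the gene, including what an excision of part of it would leave, so it does not check the genotype label. The X-inactivation RNA Xist was at 68.2 and 102 FPKM and the Y-linked gene Eif2s3y at 36.5 and 32.0 FPKM, so transcripts of both sexes were present in both libraries. Steps between low FPKM values put the depth at about 28.7 M reads in each library, with a ratio of 1.003 between them. With 1 library per genotype, no difference between Het and cKO has a replicate check, none was tested, and all are given as differences between these libraries. Differences are on the scale of log2((cKO FPKM + 1)/(Het FPKM + 1)), which understates the change of low genes. Genes counted past 2-fold or 4-fold passed it on this scale, while folds given for single genes are plain ratios of FPKM.

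Of the 12296 genes kept, 328 (2.67%) were at least 2-fold higher in cKO and 340 (2.77%) were at least 2-fold lower, 5.43% in either direction. At least 4-fold, 44 genes (0.358%) were higher and 82 (0.667%) were lower. The median over all genes kept was 0.01. Of the 340 lower genes, 33 had a mean of 100 FPKM or more and 111 a mean between 1 and 5 FPKM. Together they summed to 25420 FPKM in Het, 4.97% of the library's total, and to 5963 FPKM or 1.26% in cKO. The 328 higher genes went from 3295 FPKM (0.644%) to 9950 FPKM (2.10%). The median difference was 0.09 for genes with a mean between 1 and 5 FPKM and -0.16 for genes at 100 FPKM or more.

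**Figure D1:**
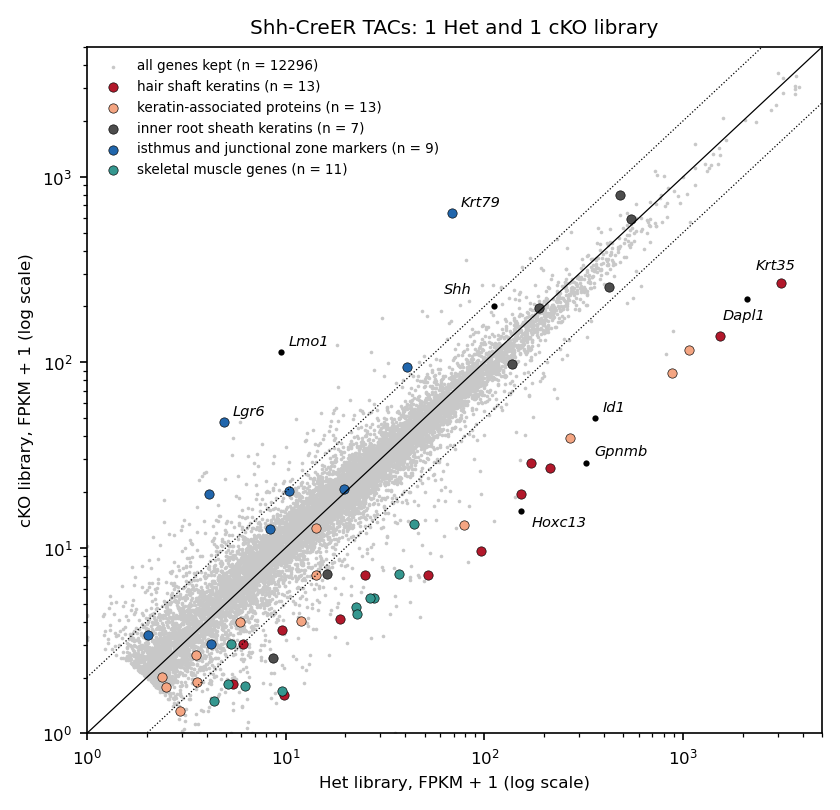
Level of each of the 12296 genes kept in the Het library (x axis) and the cKO library (y axis), as FPKM + 1 on log scales; the solid line marks equal levels and the dotted lines a 2-fold difference. Hair shaft keratins other than Krt34 and the abundant keratin-associated proteins lie below the lower dotted line. Krt79 and Lgr6 lie far above the upper one. The inner root sheath keratins with over 100 FPKM in Het lie between the dotted lines.

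Hair shaft keratins had the lowest medians of the 52 gene lists described. Type I and type II hair keratins pair to form the filaments of the shaft cortex and cuticle. All 7 type I shaft keratins kept, of 9 listed, were lower in cKO, 6 of them at least 2-fold, with a median log2 difference of -2.59 against 0.01 over all genes kept. All 6 type II shaft keratins were at least 2-fold lower, with a median of -2.73. The type I members summed to 3609 FPKM in Het against 342 in cKO, and the type II members to 1767 and 167 FPKM. In a bulk sample, fewer cells of a type and less RNA per cell cannot be told apart.

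Krt35, an early type I keratin of the cortex and cuticle, held rank 8 by FPKM in the Het library and rank 193 in cKO, 11.5-fold lower. Krt85, a type II keratin that appears in the same early zone, was at 1533 FPKM in Het against 138 in cKO, 11.1-fold lower. Krt36, another type I keratin of the shaft, was at 95.5 and 8.65 FPKM. These 3 keratins differed by similar folds although their levels were far apart. Keratins that come on later in the cortex followed, with Krt31 at 213 and 25.9 FPKM, Krt33a at 171 and 27.6 FPKM and Krt86 at 51.0 and 6.16 FPKM. Krt32, a cuticle keratin of low level, was at 8.61 and 2.62 FPKM. Krt34 was the shaft keratin nearest to equality, at 5.07 and 2.05 FPKM, a log2 difference of -0.99.

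The hair keratins lie side by side within the 2 keratin gene clusters, and the genes kept that could be placed there formed runs lower in cKO. On mm9 chromosome 11, the run from Krt33a to Krt36 (99872508 to 99966940, as the K15-CrePGR table lists the loci) held 7 genes kept, of which 6 were at least 2-fold and 4 at least 4-fold lower. On mm9 chromosome 15, the run from Krt83 to Krt75 (101261920 to 101404335) held 8 genes kept, all 8 at least 2-fold and 7 at least 4-fold lower. The ends of both runs were set at chosen keratins. Genes kept with no locus listed, such as Krt85, were not placed or counted. The kept genes named beside the runs fell short of 2-fold on the log2 scale used, at -0.92 for Krtap17-1 and -0.79 for Krt6b. As plain ratios of FPKM, these genes were more than 2-fold lower, so the edges of the runs depend on the scale. The gene before Krt83 is not given. Beside the run on chromosome 11, Krtap17-1 before Krt33a was at 2.56 and 0.883 FPKM, and Krt15, a keratin of basal outer root sheath cells after Krt36, was at 86.4 and 141 FPKM. Beside the run on chromosome 15, Krt6b after Krt75 was at 5.17 and 2.56 FPKM, and Krt6a after that at 20.1 and 30.4 FPKM. The clones 5430421N21Rik and 4732456N10Rik lie within the second run, and RefSeq gives these names as synonyms of Krt83 and Krt86 and of Krt90. Reads of such near-identical copies can be split between them, so their single values are uncertain.

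Keratin-associated proteins, which crosslink the keratin filaments of the shaft, were kept in 13 of 50 listed genes, and 8 of the 50 were listed at 0 in both libraries. The cKO value was the lower for all 13, by at least 2-fold for 6, and the median log2 difference was -0.998. Members such as Krtap3-1, at 1.93 and 0.321 FPKM, passed the minimum through Het alone, and with no minimum the median over 42 genes not at 0 in both libraries was -0.12. The 50 listed genes had a summed level of 2355 FPKM in Het against 290 in cKO. The abundant members carried that sum. Krtap8-1, of the glycine- and tyrosine-rich type, was at 1065 and 116 FPKM, and Krtap7-1, of the same type, at 880 and 86.1 FPKM. Krtap11-1 was at 269 and 38.3 FPKM and Krtap15 at 77.8 and 12.3 FPKM. The other members kept differed less on the log2 scale used, which understates the change of low genes. Among these, Krtap3-3 was nearest to equality, at 13.3 and 11.8 FPKM, a log2 difference of -0.16. Krtap14 was furthest from it on that scale, with a log2 difference of -1.57. As a plain ratio of FPKM, Krtap3-1 differed more than Krtap14.

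The window of 250 bases before the annotated start is shown for 4 lower genes and 2 higher genes, because the TATA box (letters TATAAA, read on the transcribed strand) stood in a larger share of the windows of the genes at least 4-fold lower than of all genes kept, as given below. The sequences are from RefSeq on GRCm38.p6, written 5′ to 3′ in the direction of transcription, with TATAAA in capitals. The windows are chr11:100050552-100050801 on the minus strand for Krt31, chr16:89487953-89488202 on the minus strand for Krtap8-1, chr16:89571184-89571433 on the minus strand for Krtap11-1, chr2:59484403-59484652 on the plus strand for Dapl1, chr1:135105277-135105526 on the minus strand for Lgr6 and chr15:101940325-101940574 on the minus strand for Krt79.
Krt31: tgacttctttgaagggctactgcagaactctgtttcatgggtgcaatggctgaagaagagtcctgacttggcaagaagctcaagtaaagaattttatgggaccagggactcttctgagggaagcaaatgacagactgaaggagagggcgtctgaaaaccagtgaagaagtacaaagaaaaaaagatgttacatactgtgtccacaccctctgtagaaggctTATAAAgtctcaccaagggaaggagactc
Krtap8-1: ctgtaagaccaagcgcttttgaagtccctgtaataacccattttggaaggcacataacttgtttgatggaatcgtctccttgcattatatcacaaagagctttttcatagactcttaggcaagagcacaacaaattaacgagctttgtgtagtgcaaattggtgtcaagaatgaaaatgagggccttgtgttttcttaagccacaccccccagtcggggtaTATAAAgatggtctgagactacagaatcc
Krtap11-1: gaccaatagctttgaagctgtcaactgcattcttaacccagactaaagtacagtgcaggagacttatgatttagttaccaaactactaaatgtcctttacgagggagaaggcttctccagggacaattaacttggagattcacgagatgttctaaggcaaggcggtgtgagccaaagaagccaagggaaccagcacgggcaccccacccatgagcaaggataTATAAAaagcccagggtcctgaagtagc
Dapl1: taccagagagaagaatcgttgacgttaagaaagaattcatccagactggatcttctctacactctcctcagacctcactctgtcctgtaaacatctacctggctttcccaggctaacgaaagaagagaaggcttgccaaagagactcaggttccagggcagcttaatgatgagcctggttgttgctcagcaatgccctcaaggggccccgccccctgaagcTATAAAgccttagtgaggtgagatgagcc
Lgr6: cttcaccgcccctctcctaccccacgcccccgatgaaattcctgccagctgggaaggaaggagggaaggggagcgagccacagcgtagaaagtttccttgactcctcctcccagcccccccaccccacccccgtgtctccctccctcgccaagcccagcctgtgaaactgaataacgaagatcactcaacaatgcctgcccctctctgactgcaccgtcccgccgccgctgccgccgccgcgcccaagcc
Krt79: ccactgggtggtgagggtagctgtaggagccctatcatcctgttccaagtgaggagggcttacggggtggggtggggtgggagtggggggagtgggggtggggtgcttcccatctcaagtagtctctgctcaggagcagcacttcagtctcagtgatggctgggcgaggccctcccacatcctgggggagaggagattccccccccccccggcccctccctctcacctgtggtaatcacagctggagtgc
The TATAAA began 29 bases before the start in Krt31, Krtap8-1 and Dapl1 and 28 bases before it in Krtap11-1. The windows of Lgr6 and Krt79 held none. The genes shown were picked by hand among the named genes and do not stand for their sets. Most windows of the genes at least 4-fold lower held no TATAAA (12 of 62 did), and 2 of 43 windows of the 4-fold higher genes held it.

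Of the 12296 genes kept, 8660 had a window in the RefSeq table, with 11056 windows in all, since a gene can have several starts. TATAAA was present in 3.97% of all these windows, in 19.4% of the windows of the genes at least 4-fold lower (12 of 62) and in 4.65% of those of the genes at least 4-fold higher (2 of 43). It was present in 8 of the 11 windows of keratin-associated proteins, in 4 of the 5 of type I shaft keratins and in neither of the 2 of type II shaft keratins, families of related genes whose sequences are alike. Letters of the Hox type (N for any base, TTTATNAA, TTTATNAG, TTTATNGA, TTTATNGG, TTAATNAA, TTAATNAG, TTAATNGA or TTAATNGG, on both strands, with matches overlapping TATAAA left out) were present in 9.35% of all windows, 24.2% of the 4-fold lower ones and 18.6% of the 4-fold higher ones. Letters of the LEF1 type (CTTTGNN on both strands, where each N stands for A or T only) were present in 10.4%, 14.5% and 9.30%. The GC-rich Smad type (GGCGCC) was present in 16.8%, 11.3% and 11.6%. A match describes the letters of a window and shows no binding.

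Proteins of the hardening shaft and its sheaths, with the enzymes that crosslink them, were lower in part. Of 17 genes in this list, which also holds Dlx3, a transcription factor counted in the factor and BMP target lists too, 16 were kept, 10 were at least 2-fold lower and 1 was at least 2-fold higher, with a median of -1.45. S100a3, a calcium-binding protein of the hair cuticle, was at 822 FPKM in Het against 109 in cKO. Padi4, which converts arginine to citrulline in proteins, was at 45.3 and 6.15 FPKM, and the transglutaminase Tgm3, which crosslinks proteins, at 34.3 and 6.80 FPKM. The group did not differ as a whole, since Tchh, the trichohyalin of the inner root sheath and medulla, was at 196 and 313 FPKM. Tchhl1, a relative of trichohyalin, was at 20.7 and 3.59 FPKM.

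Inner root sheath keratins, which pair in the layers that mould the growing shaft, stood nearer to equality in the Shh-CreER pair. Of 8 listed, 7 were kept and 2 were at least 2-fold lower, with a median of -0.49, and the sum was 1794 FPKM in Het against 1938 in cKO. Krt25 was at 546 and 589 FPKM, Krt71 at 186 and 194 FPKM and Krt73, a keratin of the sheath cuticle, at 480 and 794 FPKM. Krt28 was lower, at 421 and 254 FPKM, and Krt27 was at 137 and 97.3 FPKM. The members past 2-fold were of low level: Krt26 was at 7.60 and 1.54 FPKM and the pseudogene Krt72-ps at 15.1 and 6.22 FPKM.

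Among outer root sheath and companion layer keratins, 9 of 9 were kept, and the extremes of the list stood at opposite ends. Krt75, the companion layer keratin that also occurs in the medulla, was at 111 FPKM in Het against 12.9 in cKO. Krt79, a keratin of the infundibulum and sebaceous duct, was at 68.1 and 638 FPKM. The basal keratins lay between these, with Krt14 at 373 and 531 FPKM, Krt5 at 1143 and 1492 FPKM and Krt17 at 740 and 1016 FPKM. Their list had a median of 0.46 and summed to 2575 FPKM in Het against 3879 in cKO.

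Desmosome genes differed little, with 1 of 17 kept at least 2-fold lower and a median of -0.22. That gene was Dsg4, the desmoglein of the differentiating shaft, at 41.2 and 5.67 FPKM. Desmosomal genes shared by all keratinocytes stayed close, such as Dsp at 209 and 145 FPKM and Dsg3 at 22.3 and 25.2 FPKM. Of 12 connexin and tight junction genes kept, 4 were at least 2-fold lower and none was at least 2-fold higher, with a median of -0.55. Cldn10 was at 244 and 103 FPKM, Cldn4 at 86.5 and 39.2 FPKM and the connexin Gjb2 at 205 and 98.8 FPKM.

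Transcription factors of the shaft and matrix were lower in part. Of 27 listed, 25 were kept, 10 were at least 2-fold lower and 1 was at least 2-fold higher, with a median of -0.81. Hoxc13, the homeobox factor that switches on hair keratin genes, was 10.2-fold lower. Msx1 was at 59.5 and 8.05 FPKM, Dlx4 at 23.0 and 4.79 FPKM and Foxq1, a forkhead factor of the medulla, at 48.5 and 5.62 FPKM. Prdm1, a transcriptional repressor, was at 12.1 and 1.36 FPKM. Some factors of the group were nearer to equality: Lef1, the nuclear partner of beta-catenin in the matrix, was at 87.0 and 51.6 FPKM, Foxn1 at 14.9 and 7.76 FPKM, and Gata3, a factor of the inner root sheath, at 51.6 and 81.1 FPKM. Ovol2, a zinc finger repressor of the epithelium, was the higher member, at 7.95 and 17.4 FPKM. Hox genes other than Hoxc13 were kept in 20 of 32, with 2 at least 2-fold higher, none at least 2-fold lower and a median of 0.36, which came to 0.04 over all 32 with no minimum level. The neighbours Hoxc8 and Hoxc6 were at 16.7 and 27.9 FPKM and at 9.12 and 15.5 FPKM.

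BMP target genes were kept in 12 of 15, of which 7 were at least 2-fold lower and none was at least 2-fold higher, with a median of -1.10. Id1, a direct target of SMAD1 and SMAD5, was at 358 FPKM in Het against 49.2 in cKO, 7.28-fold lower. Id3 was at 562 and 221 FPKM and Id2 at 265 and 130 FPKM. These 3 Id genes encode inhibitors of differentiation factors. Bambi, a pseudoreceptor that BMP signals induce and that dampens them, was at 61.6 and 10.6 FPKM. The inhibitory Smads, which are induced by the pathway they block, were just short of 2-fold on the log2 scale used, with Smad6 at 13.7 and 6.54 FPKM and Smad7 at 26.8 and 14.0 FPKM. Id4 was at 8.28 and 9.25 FPKM. Some members of this list, such as Msx1, Msx2, Dlx3 and Gata3, are also counted among the hair transcription factors.

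**Figure D2:**
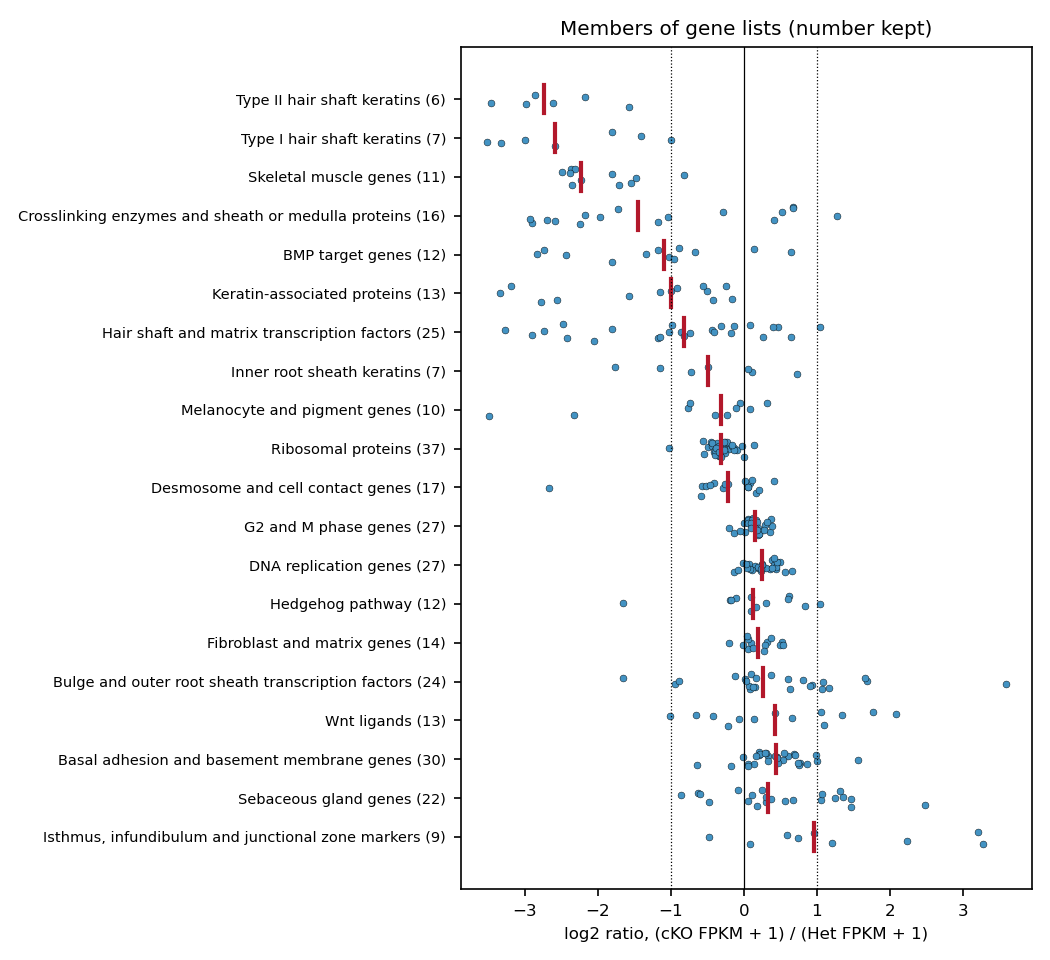
Log2 ratio of (cKO FPKM + 1) to (Het FPKM + 1) for each kept member of 20 gene lists (points, with a small vertical spread for legibility) and the median of each list (red bars); dotted lines mark 2-fold. Medians run from -2.73 for type II hair shaft keratins to 0.96 for isthmus and junctional zone markers, and the skeletal muscle genes stand at -2.23.

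The other parts of the BMP pathway were mostly higher or close to equal. Among ligands, 11 of 19 were kept, 2 reached 2-fold upward and 1 downward, with a median of 0.45. Bmp4 was at 45.4 and 73.2 FPKM, Bmp2 at 42.3 and 65.9 FPKM and Bmp7 at 72.0 and 98.6 FPKM. Tgfb3, a ligand of the related TGF-beta branch, had the largest difference of the ligands, at 2.87 and 24.3 FPKM. Bmp8a was the lower ligand, at 4.18 and 0.850 FPKM. Among receptors, 13 of 16 were kept, with a median of 0.34, and 2 were at least 2-fold higher, both of low level (Tgfbr3 at 2.06 and 6.08 FPKM, Rgma at 2.04 and 5.09 FPKM). The type II receptor Bmpr2 was at 12.9 and 19.2 FPKM and the type I receptor Acvr1 at 20.3 and 17.7 FPKM.

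None of the 12 Smads and Smad regulators kept reached 2-fold in either direction, with a median of 0.11. The signal transducers Smad1, at 35.4 and 42.7 FPKM, and Smad5, at 36.9 and 40.2 FPKM, were close in the 2 libraries, as was their shared partner Smad4 at 43.9 and 47.8 FPKM. Antagonists split: Fst, the secreted follistatin, was at 40.0 and 93.5 FPKM and Twsg1, a BMP-binding protein, at 45.5 and 83.4 FPKM, while Bmper, another, was at 8.61 and 1.34 FPKM. Sostdc1, an antagonist of the outer root sheath, was at 19.0 and 21.3 FPKM. Of the 10 antagonists kept, 1 was at least 2-fold higher and 2 were at least 2-fold lower, and the median was 0.09.

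Markers of the upper follicle were higher in part. Among markers of the isthmus, infundibulum and junctional zone, the part of the follicle between bulge and skin surface, 9 of 10 were kept and 4 were at least 2-fold higher, none lower, with a median of 0.96 and a sum of 155 FPKM in Het against 852 in cKO. Krt79, described above, provided most of the cKO sum. Lgr6, an R-spondin receptor, was 11.9-fold higher in cKO, with about 751 reads in Het and 8924 reads in cKO estimated from the depth. Lrig1, an inhibitor of EGF receptors that marks the junctional zone, was at 3.13 and 18.5 FPKM. Not all markers of this zone differed: Defb6, a defensin of the infundibulum, was at 18.7 and 19.7 FPKM, and Cst6, a cystatin, at 7.33 and 11.6 FPKM.

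Sebaceous gland genes were kept in 22 of 24, with 8 at least 2-fold higher, none at least 2-fold lower and a median of 0.33. Pparg, the nuclear receptor of sebocytes and adipocytes, was at 1.45 FPKM in Het against 12.7 in cKO. The lipid droplet protein Cidea was at 4.05 and 13.0 FPKM, the fatty acid elongase Elovl3 at 9.41 and 27.9 FPKM and the desaturase Scd1 at 121 and 252 FPKM. Other lipid genes shared with many cells were near equality, such as Fasn at 37.5 and 38.9 FPKM and Mgst1 at 519 and 640 FPKM. The adipocyte gene Fabp4 was at 298 and 193 FPKM, in the opposite direction to the sebaceous members named.

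Genes of the cornifying epidermis did not move as a group, with 5 of 16 kept at least 2-fold higher, 1 at least 2-fold lower and a median of 0.04. Krtdap was at 31.9 and 97.7 FPKM and the kallikrein protease Klk7 at 5.31 and 21.0 FPKM, while involucrin, Ivl, a precursor of the cornified envelope, was at 30.9 and 9.56 FPKM. Of 6 epidermal keratins kept, none reached 2-fold and the median was 0.47, with Krt10 at 39.0 and 56.2 FPKM and Krt1 at 29.3 and 25.9 FPKM.

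Wound and stress genes of keratinocytes were kept in 13 of 18, with 1 past 2-fold upward, 2 downward and a median of -0.31. Krt6a, the keratin of activated keratinocytes, was at 20.1 and 30.4 FPKM and its partner Krt16 at 27.7 and 14.8 FPKM, while the neutrophil and keratinocyte gene S100a8 was at 49.5 and 13.1 FPKM. Simple epithelial keratins were low in both libraries, with Krt18 at 2.19 and 1.37 FPKM.

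Basal adhesion and basement membrane genes shared a small difference. Of 31 listed, 30 were kept, 27 were higher in cKO and 3 lower, but only 2 reached 2-fold, and the median was 0.44. The hemidesmosome collagen Col17a1 was at 40.9 and 67.4 FPKM and the integrin Itgb5 at 72.8 and 124 FPKM. Bulge stem cell markers were kept in 19 of 24, with 3 past 2-fold upward and 1 downward, and a median of 0.48. Their defining member Cd34 was at 22.1 and 23.4 FPKM and Lgr5 at 1.31 and 0.891 FPKM, while Ctgf, a secreted matrix protein, was at 6.58 and 35.3 FPKM. Aldh1a3, the lower member of that list, is a retinaldehyde dehydrogenase and was at 81.7 and 7.36 FPKM.

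Transcription factors of the bulge and outer root sheath were kept in 24 of 27, with 6 past 2-fold upward and 1 downward, and a median of 0.27. Lmo1, a LIM-only cofactor, had the largest difference upward of all genes kept, at 8.43 FPKM in Het against 113 in cKO, 13.4-fold higher. Barx2 was at 16.6 and 54.4 FPKM and Nfib, a nuclear factor of stem and matrix cells, at 23.3 and 53.6 FPKM. Sox9, the factor of outer root sheath and bulge, was at 2.15 and 5.62 FPKM, a low level in both libraries. Lhx2, another factor of the bulge, went the other way at 13.9 and 6.75 FPKM.

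Other genes among the largest differences had diverse roles. Smoc2, a secreted calcium-binding matrix protein, was at 29.7 FPKM in Het against 172 in cKO, Lgals9, a galectin, at 17.2 and 124 FPKM, and Slc16a1, a monocarboxylate transporter, at 4.89 and 46.4 FPKM. Dapl1, whose TATA window is shown above, was an abundant lower gene outside the keratins and their partners, at 2104 and 217 FPKM. Folr4, a folate receptor relative, was at 1.44 and 17.1 FPKM, Lgi2 at 2.99 and 24.7 FPKM and the hydrolase gene Abhd12b at 4.39 and 30.6 FPKM. These 3 genes were low in Het, where Folr4 rested on about 51 estimated reads, Abhd12b on 223 and Lgi2 on 553. The carbonic anhydrase Car2 was at 25.9 and 2.28 FPKM, Selenbp1, a selenium-binding protein, at 32.5 and 3.38 FPKM, and Sct, the hormone secretin, at 46.2 and 3.25 FPKM. Srp54b, a subunit gene of the signal recognition particle, was at 34.6 FPKM in Het and listed at 0 in cKO. An exact 0 in such a table can be a failed estimate, so no fold is given.

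Hedgehog genes differed by member. Of 15 listed, 12 were kept, 1 was at least 2-fold higher and another at least 2-fold lower, with a median of 0.13. Shh itself was 1.80-fold higher in cKO. The general targets of the pathway, Gli1 at 23.7 and 29.5 FPKM and Ptch1 at 10.7 and 12.1 FPKM, were close. Gli3, the member with repressor activity, was at 13.5 and 3.63 FPKM.

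Wnt ligands were kept in 13 of 18, with 5 at least 2-fold higher, 1 at least 2-fold lower and a median of 0.43. Wnt10b, a ligand of the matrix and placode, was at 120 and 251 FPKM and Wnt6 at 45.8 and 99.2 FPKM. Wnt8a was at 4.60 and 18.0 FPKM. Ligands of other kinds did not share this: Wnt4 was at 85.5 and 42.0 FPKM, Wnt3 at 37.4 and 27.7 FPKM and Wnt5a at 44.8 and 49.6 FPKM. Of 31 Wnt receptors, inhibitors and targets kept, 3 were at least 2-fold higher and none was at least 2-fold lower, with a median of 0.26. Axin2, the general target of the pathway, was at 40.7 and 52.3 FPKM, while 2 secreted inhibitors stood higher, with Wif1 at 232 and 459 FPKM and Dkk4 at 16.7 and 37.9 FPKM.

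Edar, the ectodysplasin receptor of hair placodes and matrix, was at 14.1 FPKM in Het against 52.5 in cKO, and was the 1 of 9 members of its pathway at least 2-fold higher, with a median of 0.38. Its adaptor Edaradd was at 9.85 and 15.4 FPKM. Of 16 Notch pathway genes kept, with a median of 0.05, 1 was at least 2-fold lower. It was Heyl, a Notch target, at 12.8 and 2.65 FPKM. The target Hes1 was at 164 and 87.8 FPKM and the ligand Jag1 at 109 and 65.6 FPKM.

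Receptors of FGF, the fibroblast growth factors, differed by member: Fgfr1 was 2.05-fold higher in cKO, while Fgfr2 was at 74.9 and 48.9 FPKM and Fgfr3 at 43.8 and 25.5 FPKM. Of the 13 FGF genes kept, 2 were at least 2-fold higher and the median was 0.31. The feedback inhibitor Spry1 was the other higher member, at 16.6 and 37.3 FPKM. Among 12 EGF family genes kept, with a median of 0.40, 3 were at least 2-fold higher, namely Lrig1 and the ligands Tgfa, at 4.83 and 12.3 FPKM, and Epgn, at 3.96 and 11.5 FPKM. IGF binding proteins, which hold insulin-like growth factors, split as well within a list of 13 genes with a median of -0.06, with Igfbp4 at 59.6 and 188 FPKM, Igfbp2 at 25.9 and 113 FPKM and Igfbp5 at 24.7 and 8.39 FPKM. Guidance molecules were kept in 31 of 39, with 6 past 2-fold upward, 4 downward and a median of 0.12. The ephrin receptor Epha1 was at 93.7 and 25.0 FPKM and the ephrin Efnb2 at 35.5 and 12.7 FPKM, while the receptor Ephb4 was at 17.0 and 42.9 FPKM.

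Cell cycle genes differed little. None of 27 DNA replication genes reached 2-fold, with 24 higher and 3 lower in cKO and a median of 0.24. None of 27 genes of the G2 and M phases did so either, with 24 higher and 3 lower and a median of 0.15. The mitotic kinase gene Cdk1 was at 80.9 and 84.2 FPKM and Top2a, the topoisomerase of dividing cells, at 168 and 206 FPKM. Among 21 G1 cyclins and inhibitors kept, 2 were past 2-fold upward and 1 downward, with a median of 0.01. Cdkn1a, which encodes the CDK inhibitor p21, was at 167 and 65.1 FPKM, Ccnd1, cyclin D1, at 52.5 and 95.3 FPKM, and Cdkn2a at 2.36 and 9.66 FPKM.

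Metabolic lists had few members past 2-fold. Glycolysis and hypoxia genes were kept in 26 of 28, with 2 at least 2-fold higher, 1 at least 2-fold lower and a median of 0.38. Ndrg1 was at 27.0 and 89.8 FPKM and Ddit4 at 82.3 and 214 FPKM, both stress-responsive genes, and the glucose transporter Slc2a1 was at 13.9 and 23.3 FPKM. In the list of monocarboxylate, ketone and creatine metabolism, Slc16a1 was the 1 of 18 genes kept to pass 2-fold, and the median was -0.13. In cholesterol and retinoid metabolism, 2 of 26 genes kept were at least 2-fold higher, the retinoid genes Adh7, at 4.41 and 38.0 FPKM, and Crabp2, at 3.96 and 22.5 FPKM, and Aldh1a3 was the lower 1, with a median of -0.16. Ch25h, which makes 25-hydroxycholesterol and stands outside the list, was at 2.78 and 23.5 FPKM. Sqle, an enzyme of cholesterol synthesis, was at 92.5 and 82.9 FPKM. Ribosomal protein genes showed a small shared difference, with 36 of 37 lower in cKO and a median of -0.31, which came to -0.15 with quantile normalization, where Rpl32 was among those no longer lower. Immediate early genes, which respond quickly to stimuli, were kept in 18 of 18 with 1 at least 2-fold higher and a median of 0.11, and Fos was at 481 and 619 FPKM.

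Markers of cells other than hair keratinocytes differed between the 2 libraries in some lists. Skeletal muscle genes were kept in 11 of 15, and 10 were at least 2-fold lower in cKO, with a median of -2.23 and a sum of 202 FPKM in Het against 39.9 in cKO. The creatine kinase Ckm was at 26.7 and 4.37 FPKM and the fast myosin light chain Mylpf at 43.2 and 12.5 FPKM. These genes count among the 340 lower genes, beside the hair shaft genes, and the part of muscle tissue in other differences was not tested. The shaft keratins summed to more than the muscle genes in both libraries, but such sums do not show how far the tissue content differed.

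Among melanocyte and pigment genes, with a median of -0.32, 2 of 10 kept were at least 2-fold lower, Gpnmb at 322 and 27.8 FPKM and Dct at 82.9 and 15.8 FPKM. Other defining genes of that cell were low in both libraries, with Tyrp1 at 2.01 and 2.18 FPKM and Pmel at 3.38 and 2.73 FPKM, and Kit was at 35.2 and 44.2 FPKM. Immune genes summed to 614 FPKM in Het against 423 in cKO, and 1 of 12 kept, C1qa, was at least 2-fold lower, with a median of -0.37. Lyz2 was at 140 and 93.5 FPKM and the antigen presentation gene Cd74 at 66.8 and 80.6 FPKM. The part of these cells in the differences was not tested.

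Mesenchymal lists were closer to equality. None of the 14 fibroblast genes, the 11 dermal papilla genes and the 11 endothelial genes kept reached 2-fold, and their medians were 0.20, 0.15 and 0.52. The endothelial genes, 10 of 11 of them higher, summed to 50.2 FPKM in Het against 68.5 in cKO. Smooth muscle and pericyte genes were kept in 9 of 9, with 2 at least 2-fold lower and a median of -0.59, and Acta2 was at 16.9 and 9.51 FPKM. Schwann and nerve genes were kept in 6 of 9, with a median of 0.59, and 2 were at least 2-fold higher, Ngfr, the p75 neurotrophin receptor that some follicle keratinocytes also express, at 2.68 and 22.1 FPKM and Ncam1 at 0.314 and 2.83 FPKM.

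**Figure D3:**
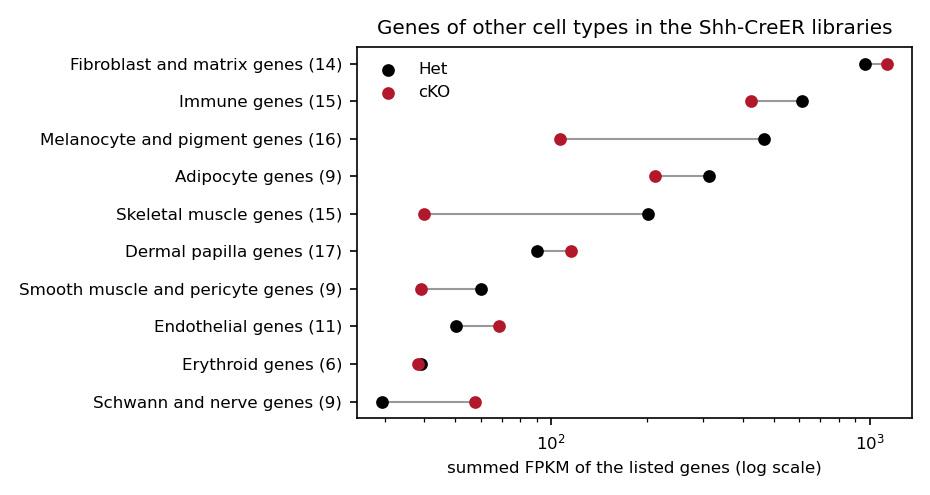
Summed FPKM of all listed genes of 10 other cell types in the Het library (black) and the cKO library (red), on a log scale; the numbers in brackets are genes listed. Skeletal muscle genes go from 202 to 39.9 FPKM and melanocyte and pigment genes from 468 to 106 FPKM, while fibroblast genes go from 969 to 1133 FPKM.

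K15-CrePGR is a ligand-dependent Cre of bulge stem cells, from which TACs descend. The K15-CrePGR TACs labelled KO are meant to lack the same gene through this other driver, at a later age and with no control sample in common with the Shh-CreER pair, and so give a side view of the same genes. Their table was normalized separately, so levels are compared only within each table. Bmpr1a was at 42.2 and 37.1 FPKM in WT and at 39.9 and 38.0 FPKM in KO, so the groups overlapped, and this level does not check the label either. The Y-linked gene Eif2s3y was at 82.4 FPKM in WT 52, 0.434 in WT 57, 0.200 in KO 64 and 2.33 in KO 84. Ddx3y, also Y-linked, was at 26.4, 0.0812, 0.0259 and 0.753 FPKM in the same order. Y-linked RNA was thus abundant in WT 52 alone, and the part of sex in the differences between KO and WT was not tested. Of the genes kept, 12092 could be matched by symbol. Both KO samples lay below both WT samples in 26.1% of these genes and above both in 29.4% (34.2% and 24.4% after scaling each library to the same median). Of the 329 matched genes at least 2-fold lower in the Shh-CreER cKO library, 152 (46.2%) lay below in both KO samples and 61 (18.5%) lay above in both. Of the 317 matched genes at least 2-fold higher, 234 (73.8%) lay above and 20 (6.31%) below. Past 4-fold, 38 of 78 matched lower genes (48.7%) lay below and 35 of 43 matched higher genes (81.4%) lay above. Across the 12092 genes, which are not independent replicates, the differences of the 2 lines had a Pearson correlation of 0.30 and a Spearman correlation of 0.35, given as a description of tables that share gene-specific traits such as level.

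**Figure D4:**
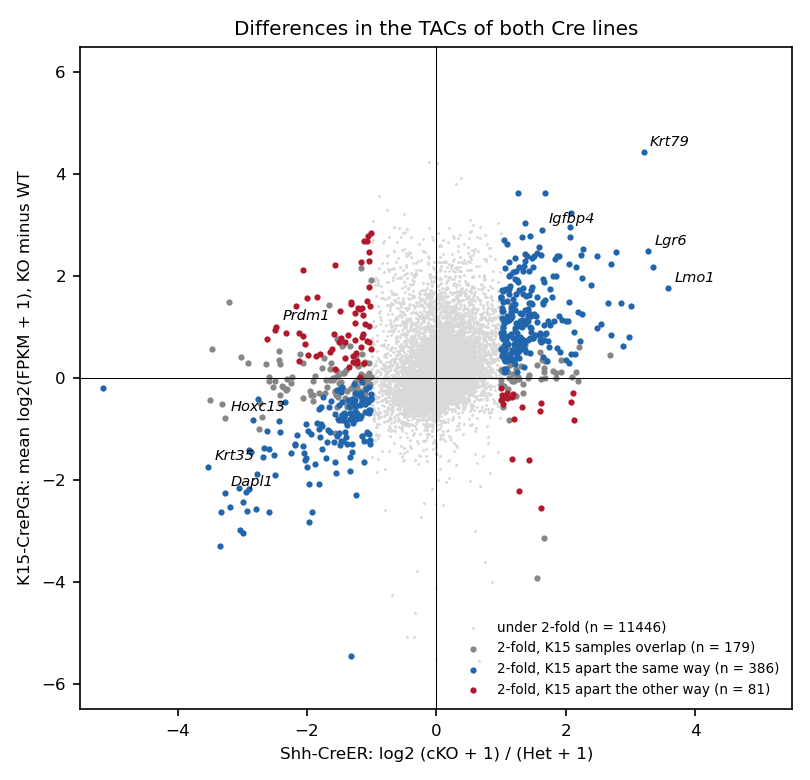
For genes present in both tables, the Shh-CreER log2 ratio (x axis) against the difference of the mean log2(FPKM + 1) of the 2 KO and the 2 WT K15-CrePGR samples (y axis); 2 genes lie outside the axes. Among genes at least 2-fold different in the Shh-CreER pair, 386 have both KO samples apart from both WT samples in the same direction (blue) and 81 in the other direction (red).

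Abundant hair shaft genes shared the direction in both lines. Krt35 was at 2519 and 2028 FPKM in the WT samples and at 733 and 624 FPKM in the KO samples of the K15-CrePGR table. Krtap7-1 was at 373 and 328 FPKM in WT and at 95.3 and 12.1 FPKM in KO, and Dapl1 at 1362 and 1339 FPKM in WT and at 291 and 276 FPKM in KO. None of these 3 genes overlapped between the groups. Of 7 type I shaft keratins, 6 lay below in both KO samples and none above. Of 5 type II members matched, 4 lay below and 1 above. Of 11 keratin-associated proteins matched, 4 lay below and 2 above, with a median of -0.35. Over all matched genes, 26.1% lay below and 29.4% above, so the keratin-associated proteins below were not far from that share. The clone 4732456N10Rik of the type II run was at 1.98 and 6.44 FPKM in WT and at 23.5 and 6.16 FPKM in KO. Among regulators, Hoxc13 was at 144 and 83.6 FPKM in WT and at 89.9 and 45.0 FPKM in KO, so that the groups overlapped, while Id3, at 573 and 315 FPKM in WT and 184 and 112 FPKM in KO, did not overlap.

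Upper follicle genes and Shh also shared the direction. Lgr6 was at 3.88 and 5.84 FPKM in the K15-CrePGR WT samples and at 36.1 and 27.2 FPKM in the KO samples, and Krt79 at 19.1 and 14.7 FPKM in WT and at 189 and 768 FPKM in KO. Lmo1 was at 3.36 and 2.10 FPKM in WT and at 14.3 and 9.19 FPKM in KO. Shh was at 19.6 and 19.8 FPKM in WT and at 50.5 and 72.8 FPKM in KO. In each of these 4 genes both KO samples lay above both WT samples. Of the 9 isthmus and junctional zone markers, 8 lay above in both KO samples, beside 29.4% of all matched genes. This was not particular to the upper follicle. Of 19 bulge stem cell markers, 16 lay above and none below, and of 30 basal adhesion and basement membrane genes, 28 lay above and none below.

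Other genes stood differently in the 2 lines, and the difference between the lines was not tested. Inner root sheath keratins were lower in the K15-CrePGR KO samples, where 5 of 7 lay below both WT samples, among them Krt25 at 1258 and 1299 FPKM in WT and at 302 and 168 FPKM in KO, and Krt71 at 1632 and 1711 FPKM in WT and at 552 and 420 FPKM in KO. In the Shh-CreER pair these 2 keratins were near equality. Krt75, 8.65-fold lower in the Shh-CreER cKO library, was at 108 and 74.6 FPKM in WT and at 102 and 141 FPKM in KO. Of 27 genes of the G2 and M phases, 18 lay below in both K15-CrePGR KO samples, while 24 of 27 were higher in the Shh-CreER cKO library. All 12 immune genes lay above in both K15-CrePGR KO samples, with a sum between 53.3 and 201 FPKM in WT and between 308 and 1819 FPKM in KO, and fibroblast genes (13 of 14), smooth muscle and pericyte genes (8 of 9) and endothelial genes (7 of 11) also lay above there, with medians of 2.08, 1.35 and 1.09. The part of these cells in the other differences of that line was not tested. Over all matched genes, both KO samples lay below both WT samples in 26.1% and above in 29.4%. Skeletal muscle genes, lower in the Shh-CreER cKO library, lay below in 1 and above in 1 of 10 genes matched in the K15-CrePGR table.

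**Figure D5:**
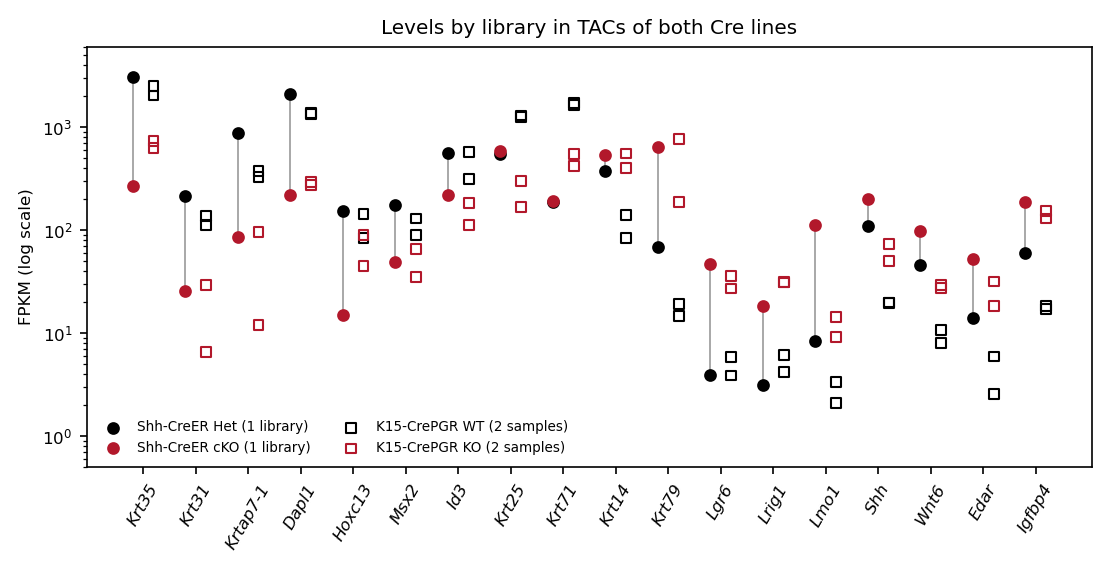
FPKM (log scale) of 18 genes in the Shh-CreER Het (black circle) and cKO (red circle) library and in the K15-CrePGR WT (black squares) and KO (red squares) samples; the 2 tables were normalized separately, so levels compare only within a table. Krt35, Krt31 and Dapl1 are lower in the cKO library and the KO samples than in the controls and Krt79, Lgr6 and Lmo1 higher, whereas Krt25 and Krt71 are lower in the KO squares but level in the circles.

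The test the K15-CrePGR samples allow, limma on log2(FPKM + 1) with Benjamini-Hochberg adjustment over 13565 named loci, passed 5 loci higher in KO (0.0369%) and 4 lower (0.0295%) at an adjusted p under 0.05. At an unadjusted p under 0.05, 1397 were higher and 961 lower. Among the genes named here, Igfbp4 was the 1 that passed, with a log2 difference of 2.91 (SE 0.159, limma adjusted p = 0.0417), from 18.5 and 17.2 FPKM in WT to 153 and 130 FPKM in KO. It was 3.16-fold higher in the Shh-CreER cKO library. No locus passed in either direction when WT 52 or WT 57 was left out, a fit in which the lone WT sample is assumed to vary like the 2 KO samples.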

How the data were processed

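The authors deposited 1 FPKM value per gene and library. The submitters' processing notes name TopHat, Cufflinks and mm9, with versions not given in the sources used here, and the labels' protocols name a Zymed kit for RNA extraction. The Shh-CreER table lists 22958 entries, and each symbol was taken from its entry of highest mean. A pseudocount of 1 FPKM was added before log2. No test was run on this pair. The K15-CrePGR table was tested alone with limma 3.58.1 in R 4.3.3 (two-sided, intensity trend, threshold 0.05). The labels do not say that its samples are separate animals, so the p-values cover the spread among these samples alone, which may be technical. Tested on simulated data over 13565 loci, the fit recovered 3 of 67 changes of 2-fold, 42 of 67 of 4-fold and 51 of 66 of 8-fold, with 5 false calls.

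The members and lists were chosen with earlier results of these data known. Named genes were the markers, the members of largest difference in each list (up to 6) at a mean of at least 5 FPKM, the 20 largest differences each way at that level, the 10 highest Het genes and genes listed at 0 in 1 library only with at least 10 FPKM in the other. Other list members that are given as contrasts, such as Krt34, Foxn1, Axin2 and Cdk1, were chosen after their values were seen. Depth was estimated from the steps between values under 0.3 FPKM, where 398 of 2459 genes shared the ratio within 0.1%, and from GENCODE vM21 lengths of transcripts over 1000 bp. Alternatives were pseudocounts of 0.1 and 5, a minimum mean of 5 FPKM, no minimum, median scaling, quantile normalization, leaving out genes listed at 0, no intensity trend and leaving out each K15-CrePGR sample. Some genes counted in the lists are not reported here by name.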

Additional observations from a re-analysis of the deposited data

Results flagged for a closer look

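In 5 named genes the Shh-CreER cKO library was at least 2-fold lower than Het while both K15-CrePGR KO samples lay above both WT samples. The K15-CrePGR difference also had to reach 2-fold on the log2 scale. Without that minimum, 61 of all 329 matched lower genes (18.5%) lay above in both KO samples, against 29.4% of the 12092 matched genes. The difference between the lines was not tested.

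Prdm1, a transcriptional repressor of the follicle and of the sebaceous gland, was at 12.1 FPKM in Het against 1.36 in cKO, a log2 difference of -2.48. In the K15-CrePGR table it was at 1.27 and 1.79 FPKM in WT and at 7.21 and 2.13 FPKM in KO. The stress-induced calcium-binding genes S100a8 and S100a9 had differences of -1.84 and -1.57 in the Shh-CreER pair, at 49.5 and 13.1 FPKM and at 62.4 and 20.4 FPKM. S100a8 was at 1.78 and 2.63 FPKM in WT and at 12.2 and 5.93 FPKM in KO, and S100a9 was listed at 0 in WT 52, at 0.903 FPKM in WT 57 and at 8.25 and 3.50 FPKM in KO. Krt19, a keratin of bulge and simple epithelia, had a difference of -1.32, from 5.11 to 1.45 FPKM, beside 0.940 and 1.87 FPKM in WT and 7.79 and 4.08 FPKM in KO. The macrophage complement gene C1qa had a difference of -1.01, beside 18.9 and 6.06 FPKM in WT and 220 and 32.2 FPKM in KO.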

How the results depend on the processing

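The counts of genes past 2-fold in the Shh-CreER pair depended on the pseudocount and the minimum level. The 328 higher genes came to 527 with a pseudocount of 0.1, to 119 with 5 and to 198 at a mean of at least 5 FPKM. The 340 lower genes came to 173 with a pseudocount of 5. The 234 higher genes with both K15-CrePGR KO samples above both WT came to 371, 88 and 138 under the same settings. The 152 lower genes with both below came to 94 with a pseudocount of 5. With 1 K15-CrePGR sample left out, such counts can only rise, here to between 243 and 260 higher and 164 and 215 lower genes. The shares over all matched genes rose too, to between 37.7% and 42.7% above and between 34.9% and 42.4% below. Of 125 named genes past 2-fold, 23 fell under it with a pseudocount of 5, 4 with quantile normalization and 1 with median scaling. The median of all genes stayed between -0.02 and 0.01. No named gene past 2-fold changed direction. The medians of the IGF, monocarboxylate, G1 and cornified epidermis lists, all near 0, changed sign under at least 1 setting.

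In the K15-CrePGR test, the 5 higher loci came to 13 with a pseudocount of 0.1, 3 with 5, 9 at a mean of at least 5 FPKM, 2 with no minimum, 3 with no intensity trend and between 0 and 18 with 1 sample left out. The 4 lower loci came to 8 with a pseudocount of 0.1 and between 0 and 7 with 1 sample left out. The median of keratin-associated proteins came to -0.38 with a pseudocount of 5 and to -0.12 with no minimum, when 42 genes count. That of skeletal muscle genes came to -2.53 and -1.46 and that of endothelial genes to 0.77 and 0.22 with pseudocounts of 0.1 and 5. The causes were not tested. No paired analysis was possible because the K15-CrePGR samples 52, 57, 64 and 84 share no replicate number. With 1 library per genotype, no setting gives the Shh-CreER differences an error.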
